A study of Mus musculus with 4 samples.

Results

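The genes described here act in G2 phase and mitosis, and they were taken as a list of 37 genes drawn up by function. Of the 37, 36 were measured, each by 1 probe set whose annotation gives that symbol alone, out of 22180 genes measured in all. Ccnb1, the gene of cyclin B1, had no such probe set, so its level was not analysed here. The genes were measured in CT26, a colon carcinoma line of the mouse grown in culture, and hybridised to 4 arrays of the Affymetrix Mouse Gene 2.0 ST type, with 1 array per group. The groups were CT26 given 5 µM Senexin B for 24 h, CT26 given DMSO for 24 h, the line labelled CT26-shCDK8 and the line labelled CT26-pLKO.1. Senexin B blocks CDK8 and its paralog CDK19, kinases that associate with Mediator, and DMSO is the solvent it was compared with. The plasmid pLKO.1 is a lentiviral vector that expresses short hairpin RNAs. The hairpin's sequence, and whether shCDK8 is a clone or a pool, were not stated in the labels, and no drug treatment is labelled for the vector and hairpin lines.

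With 1 array per group there were no replicates. No difference was tested, and every difference below is between 2 arrays, on the log2 scale of the deposited values. In bulk cultures fewer cells in G2 and mitosis and less RNA of these genes per cell cannot be told apart.

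Cells enter mitosis when Cdk1, bound to cyclin A or cyclin B, is switched on by the Cdc25 phosphatases. The kinases of the Polo and Aurora families then build the spindle, and the spindle checkpoint holds back the anaphase-promoting complex (APC/C) until every chromosome is attached. Transcripts of most of these proteins peak in G2 and mitosis. Their promoters are held by the MuvB complex, which acts as a repressor in the DREAM complex with p107 or p130 and E2F4, and as an activator with B-Myb and FoxM1. MuvB binds a short element called the cell cycle genes homology region (CHR) near the transcription start, often together with boxes bound by NF-Y.

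The promoters of the genes show these elements in the sequence itself. RefSeq start-site windows of GRCm38.p6, from 250 bases before to 50 bases after the start, matched 29 of the 37 genes by symbol. The genes Ccna2, Cdc25c, Foxm1, Aurkb, Kif20a, Tpx2, Dlgap5 and Smc4 were not searched. The windows were searched on both strands for TTTGAA and TTTAAA, the common forms of the CHR, for CCAAT, the NF-Y box, and for TTTCGCGC and TTTGGCGC, strong E2F sites. None of these motifs overlaps another by its letters in the stretches shown. The stretches run from 200 bases before to 30 bases after the start, on the gene's strand, 5′ to 3′, and capitals mark a motif on either strand (an NF-Y box on the opposite strand reads ATTGG). They are shown for genes at the core of mitotic entry and exit, and for Mki67 and Aurka. Of the measured genes, Mki67 differed most between Senexin B and DMSO, and Aurka between pLKO.1 and DMSO. Dlgap5, which differed most between shCDK8 and pLKO.1, was among the genes not searched. Ccnb1 is included as the partner of Cdk1 although its level was not analysed.
Ccnb1 (chr13:100786457-100786686, minus strand): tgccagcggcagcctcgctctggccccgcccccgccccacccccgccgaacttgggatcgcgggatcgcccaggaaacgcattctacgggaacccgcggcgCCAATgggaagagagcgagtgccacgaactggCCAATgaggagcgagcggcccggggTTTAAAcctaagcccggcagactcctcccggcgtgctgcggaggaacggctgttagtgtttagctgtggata
Ccnb2 (chr9:70421525-70421754, minus strand): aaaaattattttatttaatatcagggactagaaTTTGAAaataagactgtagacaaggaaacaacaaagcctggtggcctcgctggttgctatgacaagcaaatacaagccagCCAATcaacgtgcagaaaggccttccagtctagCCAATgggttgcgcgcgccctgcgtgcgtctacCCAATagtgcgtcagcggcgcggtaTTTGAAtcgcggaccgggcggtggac
Cdk1 (chr10:69352883-69353112, minus strand): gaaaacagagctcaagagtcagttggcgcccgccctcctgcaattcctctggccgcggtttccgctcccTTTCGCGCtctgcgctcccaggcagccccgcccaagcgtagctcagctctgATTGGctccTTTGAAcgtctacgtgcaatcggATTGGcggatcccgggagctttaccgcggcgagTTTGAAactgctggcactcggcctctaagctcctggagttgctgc
Plk1 (chr7:122159235-122159464, plus strand): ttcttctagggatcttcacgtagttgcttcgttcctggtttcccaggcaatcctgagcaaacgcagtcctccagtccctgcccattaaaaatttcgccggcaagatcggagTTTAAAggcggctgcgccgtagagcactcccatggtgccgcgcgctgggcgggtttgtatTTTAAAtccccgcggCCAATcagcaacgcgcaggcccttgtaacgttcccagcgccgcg
Cdc20 (chr4:118437314-118437543, minus strand): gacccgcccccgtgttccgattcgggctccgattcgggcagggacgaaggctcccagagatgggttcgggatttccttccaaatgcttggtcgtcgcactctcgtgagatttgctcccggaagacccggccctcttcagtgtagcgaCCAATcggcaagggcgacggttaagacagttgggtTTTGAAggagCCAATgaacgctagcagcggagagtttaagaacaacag
Mki67 (chr7:135716350-135716579, minus strand): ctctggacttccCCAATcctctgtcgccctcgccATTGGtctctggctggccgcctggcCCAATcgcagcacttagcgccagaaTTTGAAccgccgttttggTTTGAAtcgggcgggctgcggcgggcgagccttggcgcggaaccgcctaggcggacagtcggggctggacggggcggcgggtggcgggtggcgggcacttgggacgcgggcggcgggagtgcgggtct
Aurka (chr2:172370541-172370770, minus strand): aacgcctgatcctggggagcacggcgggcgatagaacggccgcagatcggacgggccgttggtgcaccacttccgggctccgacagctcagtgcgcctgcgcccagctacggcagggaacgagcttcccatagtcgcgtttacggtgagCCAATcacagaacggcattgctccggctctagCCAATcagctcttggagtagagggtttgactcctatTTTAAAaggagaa

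A CHR motif in either form was found in 25 of the 29 windows (86.2%), against 22.2% of 11151 expressed genes with a window and 27.6% of all 32851 windows. TTTGAA was found in 22 of the 29 and in 17.9% of all windows, and TTTAAA in 8 and in 13.2%. An NF-Y box was found in 24 of the 29 (82.8%), against 41.9% of expressed genes and 37.4% of all windows. Of 58 other G2/M genes 67.2% had an NF-Y box and 62.1% a CHR, and of 38 G1/S genes 57.9% had an NF-Y box. Both motifs stood together in 21 of 29 (72.4%), against 9.00% of expressed genes and 10.7% of all windows. In Ccnb2, 3 NF-Y boxes stood in a row before a CHR that begins 5 bases into the transcript, and Cdk1 had a CHR beginning 15 bases before its start. Of the 25 genes with a CHR, 20 had one beginning within 50 bases of the start. E2F sites were rarer. They were found in 2 of 29 windows (6.90%), in 1.69% of expressed genes and in 0.813% of all windows, while of 38 G1/S genes 13 had one (34.2%) and 11 had a CHR (28.9%). These are matches of letters, and no binding was measured here.

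**Figure D1:**
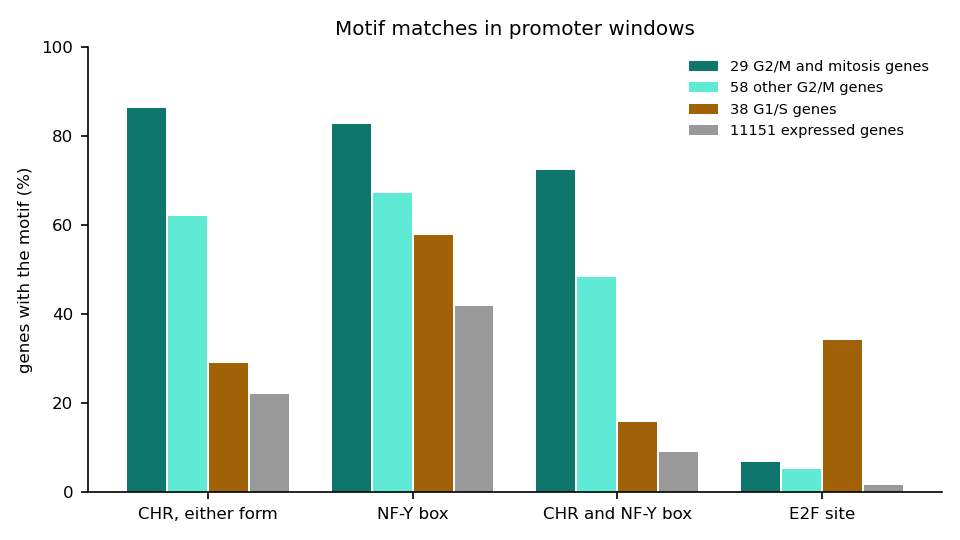
Share of genes whose promoter window holds a motif (y axis, percent), for the 29 G2/M and mitosis genes with a window, 58 other G2/M genes, 38 G1/S genes and 11151 expressed genes, with 1 group of bars per motif. A CHR in either form was found in 86.2% of the G2/M and mitosis genes against 22.2% of expressed genes, and the E2F site was most frequent among the G1/S genes, at 34.2%.

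The arrays were alike in scale, with medians between 5.99 and 6.04 over 41345 probe sets and Pearson's r between 0.982 and 0.990 across probe sets. A gene was called expressed where its highest array was at or above 5.98, the 40th percentile over genes and arrays. This held for 14272 genes and for all 36 measured G2/M and mitosis genes, so no member was lost to the filter. Cdk8 stood at 9.07 in shCDK8, against 10.79 in pLKO.1, and at 10.58 with Senexin B, against 10.69 with DMSO. Of 10 epithelial and colon markers 6 reached the limit, among them Krt8, Krt20 and Cdh1, while Epcam, Krt19, Vil1 and Cldn7 did not. Of the immune markers 2 of 6 reached it, Cd68 and Cd14, and the pan-leukocyte gene Ptprc did not. Krt20, a keratin of the gut lining, stood at 6.59 in shCDK8, against 8.03 in pLKO.1, and at 8.62 with Senexin B, against 8.72 with DMSO. Of 5 endothelial markers 4 reached the limit, but narrowly, the highest value being 6.16 for Kdr with Senexin B. Each of these 4 was under the limit on another array. Cdh5 was at -0.68 in pLKO.1 minus DMSO, with 6.15 with DMSO and 5.47, under the limit, in pLKO.1. Fibroblast markers also moved with the comparisons. Of 8 such genes 7 were expressed, Lum being under the limit on every array, and their mean log2 level was 9.28 with Senexin B, 8.45 with DMSO, 8.10 in shCDK8 and 8.66 in pLKO.1. The part of these markers in the differences of the mitotic genes was not tested.

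Setting Senexin B against DMSO addressed the response of the mitotic genes to 24 h of kinase inhibition. With Senexin B 31 of the 36 genes stood below DMSO, against 55.1% of all expressed genes, and their median difference was -0.15, against -0.028 for all expressed genes. The shifts were small. None of the 36 was 2-fold apart in either direction, against 0.687% of expressed genes at least 2-fold higher and 0.252% lower. A limit of 0.3219 on the log2 scale was then applied, called the limit from here on. By it 1 gene was lower, the proliferation marker Mki67, and none was higher, while 8.99% of expressed genes were lower by this limit and 9.21% higher. Only Ccnb2, Cdc25b, Bub1, Ttk and Ncapd2 stood above DMSO. After removal of the trend with expression level 26 genes stood below 0, with 50.2% of expressed genes, the median was -0.081 against -0.0011 for expressed genes, and Aurka, Aurkb, Bub1b, Tpx2 and Top2a changed sign. Each array was also centred on its median over the expressed genes. Then 27 genes stood below 0, beside 46.5% of expressed genes, and the median was -0.10 against 0.019 for expressed genes. Of the expressed genes past the limit 33.7% were lower after centring, against 49.4% as deposited.

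The sign depended on the control array. Set against pLKO.1 in place of DMSO, 18 of the 36 genes stood below 0 with Senexin B, with 50.2% of expressed genes, and the median was 0.0049. In that setting Aurka was past the limit on the higher side and Mki67 on the lower side, with 10.1% and 8.74% of expressed genes. The vector line, for which no drug treatment is labelled, itself stood below the DMSO array in 31 of 36 genes. Of expressed genes 55.6% did, and the median of the 36 was -0.12. Aurka (-0.36) and Nusap1 (-0.33) were past the limit, lower in pLKO.1 than with DMSO, and no gene was higher, beside 5.05% and 4.03% of expressed genes. The comparisons of Senexin B and of pLKO.1 with DMSO share the DMSO array.

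Setting shCDK8 against pLKO.1 addressed lasting depletion of Cdk8 in place of a drug. In shCDK8 28 of the 36 genes stood above pLKO.1, against 50.8% of expressed genes, with a median difference of 0.094 against 0.0038 for all expressed genes. Higher by at least the limit were Dlgap5 (0.65), Ccnb2 (0.36), Cenpe (0.36) and Cenpa (0.32), and Mki67 alone was lower by this limit (-0.35). That is 4 of 36 and 1 of 36, beside 8.81% and 7.68% of expressed genes. None was 2-fold apart, beside 0.196% of expressed genes higher and 0.322% lower. No gene changed sign under the 3 rescalings of the arrays, but Cenpa was short of the limit, at 0.3181, after centring of the arrays. Against the DMSO array, however, 21 of 36 stood below 0, beside 52.4% of expressed genes, and the median was -0.036. Dlgap5 was then higher and Ccna2 lower by at least the limit, beside 9.81% and 11.0% of expressed genes.

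**Figure D2:**
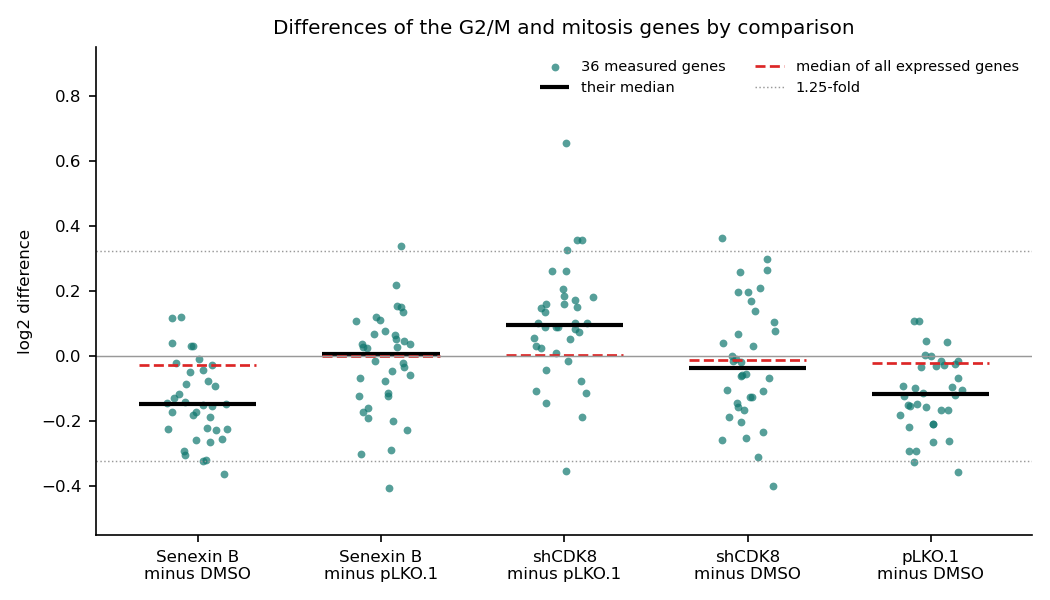
Log2 differences (y axis) of the 36 measured genes, 1 point each with horizontal jitter, for 5 pairs of arrays, with the genes' median in black, the median of all expressed genes in dashed red and dotted lines at the limit of 0.3219. The median was -0.15 for Senexin B minus DMSO and 0.0049 for Senexin B minus pLKO.1, and 0.094 for shCDK8 minus pLKO.1 and -0.036 for shCDK8 minus DMSO.

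The order of the 4 arrays gives the same data without a choice of control. The DMSO array was the highest of the 4 for 20 genes (26.6% of expressed genes) and shCDK8 for 13 (28.7%). The lowest array was pLKO.1 for 16 genes (21.7%) and Senexin B for 14 (31.2%). Across the 4 arrays a gene's highest and lowest values lay a median of 0.24 apart, ranging from 0.10 for Top2a to 0.65 for Dlgap5, beside a median of 0.31 for all expressed genes.

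**Figure D3:**
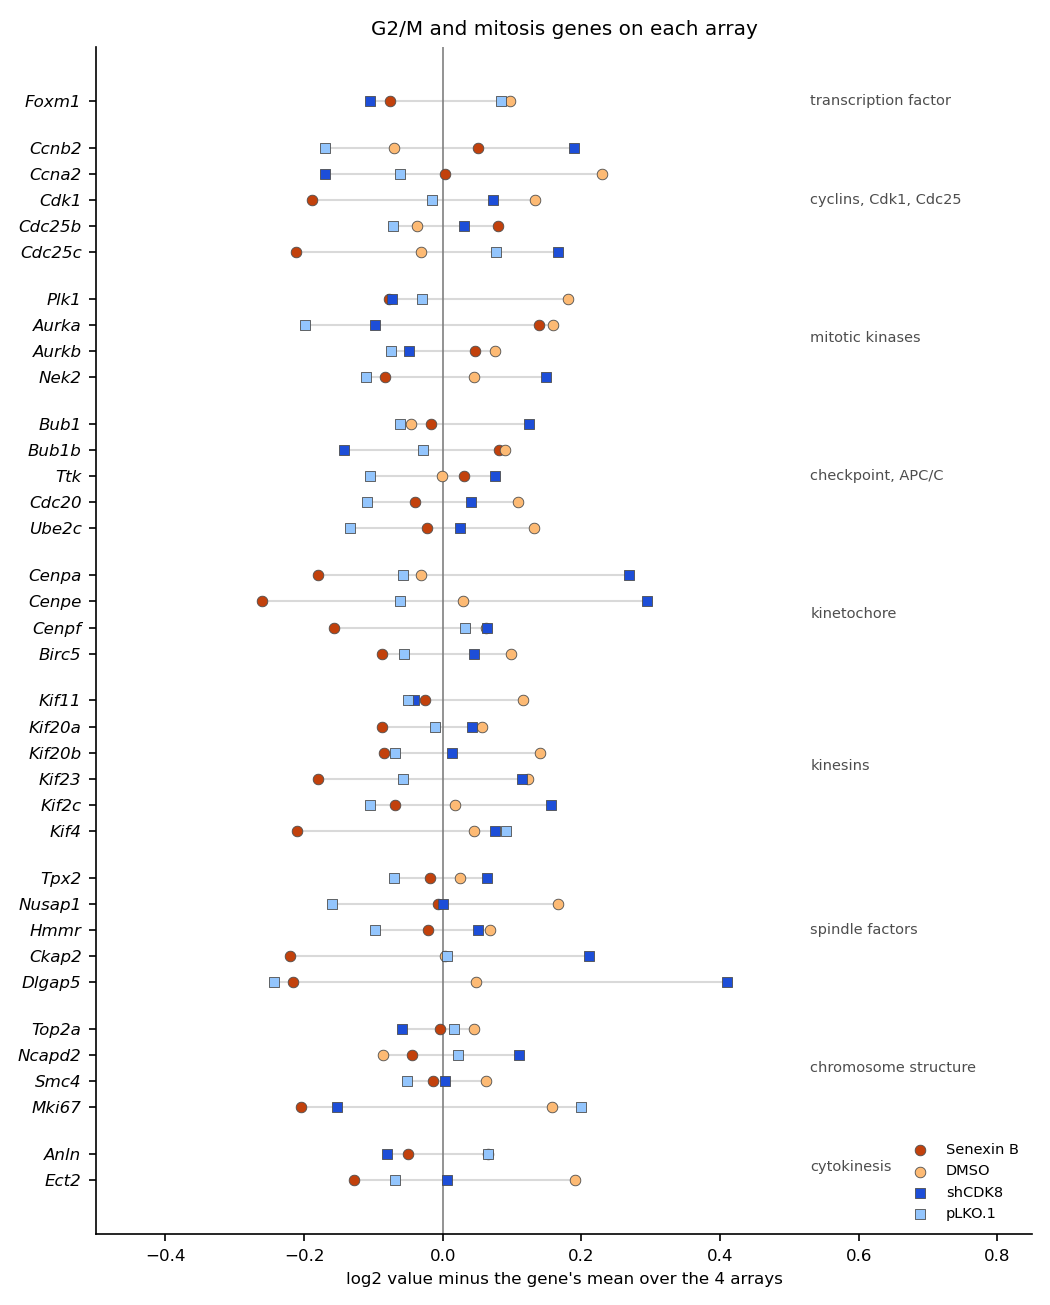
Log2 value of each of the 36 genes on each array minus that gene's mean over the 4 arrays (x axis), with the genes in rows grouped by role, circles for the inhibitor pair and squares for the hairpin pair. The DMSO array lies farthest right for 20 genes and shCDK8 for 13, among them Dlgap5, Cenpe and Cenpa.

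Mki67, which encodes the Ki-67 protein that coats mitotic chromosomes, was the one gene lower in both comparisons by at least the limit. It stood at 11.27 with Senexin B, against 11.63 with DMSO, and at 11.33 in shCDK8, against 11.68 in pLKO.1. The differences were -0.36 and -0.35, or 1.29-fold and 1.28-fold lower. Both controls lay above both perturbed cultures. Mki67 was also the single gene lower by the limit with Senexin B against both controls, a rule that 4.67% of expressed genes met and that was chosen after the values were seen. In shCDK8 against DMSO it was at -0.31, just short of the limit. With Senexin B against DMSO it was short of the limit after removal of the trend with expression level, at -0.30, and after centring of the arrays, at -0.3148.

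Dlgap5 codes for a kinetochore fibre protein that stabilises spindle microtubules, and it had the largest difference of the 36. Its value was 11.23 in shCDK8, against 10.57 in pLKO.1, and 10.60 with Senexin B, against 10.87 with DMSO. The hairpin line stood above the other 3 arrays, 1.57-fold above its vector control. It was the single gene higher by the limit in shCDK8 against both controls (5.19% of expressed genes), at 0.36 against DMSO. With Senexin B it was -0.26 from DMSO and 0.027 from pLKO.1.

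Among the factors of mitotic entry, Foxm1, the transcription factor of the program, stood at 9.65 with Senexin B, against 9.83 with DMSO, and at 9.62 in shCDK8, against 9.81 in pLKO.1. It was lower in both comparisons by similar amounts (-0.17 and -0.19). Cdk1, the mitotic kinase, had 10.24 with Senexin B, against 10.56 with DMSO, and 10.50 in shCDK8, against 10.41 in pLKO.1. Its difference with Senexin B (-0.3218) lay just under the limit, and the Senexin B array was the lowest of the 4. Ccnb2, encoding cyclin B2, was among the few genes above DMSO, with 10.06 with Senexin B, against 9.94 with DMSO, and 10.20 in shCDK8, against 9.84 in pLKO.1. Both perturbed cultures stood above both controls for this gene. Ccna2, encoding cyclin A2, had 12.04 with Senexin B, against 12.27 with DMSO, and 11.87 in shCDK8, against 11.98 in pLKO.1. The DMSO array was the highest here, and pLKO.1 differed from it by -0.29.

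The Cdc25 phosphatases remove the inhibitory phosphates of Cdk1. Cdc25b was the one gene of the 36 highest on the Senexin B array, with 10.19 with Senexin B, against 10.07 with DMSO, and 10.14 in shCDK8, against 10.04 in pLKO.1. Cdc25c had 8.60 with Senexin B, against 8.78 with DMSO, and 8.98 in shCDK8, against 8.89 in pLKO.1. For Cdc25c the inhibitor array was lowest against either control (-0.18 and -0.29), while for Cdc25b it was highest against either (0.12 and 0.15).

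The 4 mitotic kinases were all below DMSO with Senexin B, beside 55.1% of expressed genes, with a median of -0.079, and Aurka and Aurkb were within 0.03 of DMSO. Against pLKO.1, however, 3 of the 4 were above 0 with Senexin B, with a median of 0.074. Plk1, the Polo kinase, stood at 11.47 with Senexin B, against 11.73 with DMSO, and at 11.47 in shCDK8, against 11.52 in pLKO.1. DMSO alone was high for Plk1, since the other 3 arrays spanned 11.47 to 11.52. Aurka, the Aurora kinase of the spindle poles, had 10.86 with Senexin B, against 10.88 with DMSO, and 10.62 in shCDK8, against 10.52 in pLKO.1. Its arrays split by pair, the inhibitor pair high and the hairpin pair low. Nek2, a kinase that separates centrosomes, had 9.61 with Senexin B, against 9.74 with DMSO, and 9.84 in shCDK8, against 9.58 in pLKO.1, so that shCDK8 was the highest. Aurkb, the kinase of the chromosomal passenger complex, spanned only 0.15 over the 4 arrays.

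The 5 checkpoint and APC/C genes split with Senexin B, where the checkpoint genes lay near DMSO and the APC/C genes Cdc20 and Ube2c at -0.15 each. Their median was -0.010 with Senexin B and 0.16 in shCDK8. Against the other control array all 5 were above pLKO.1 with Senexin B (median 0.11), and 3 of 5 were below DMSO in shCDK8 (median -0.068). The checkpoint kinase genes Bub1 and Ttk were within 0.04 of DMSO with Senexin B and 0.19 and 0.18 above pLKO.1 in shCDK8. Bub1b, encoding BubR1, was lower in shCDK8, at 9.92 against 10.03 in pLKO.1. Cdc20, the checkpoint-controlled activator of the APC/C, had 11.31 with Senexin B, against 11.46 with DMSO, and 11.40 in shCDK8, against 11.25 in pLKO.1. Ube2c, its ubiquitin-conjugating enzyme, followed the same order of arrays, with differences of -0.15 and 0.16. In both genes DMSO was the highest array and pLKO.1 the lowest.

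The centromere and kinetochore genes were below 0 in 4 of 4 with Senexin B (median -0.20) and above 0 in 4 of 4 in shCDK8 (median 0.21). Of expressed genes 55.1% were below 0 with Senexin B and 50.8% above 0 in shCDK8. Cenpe, the kinetochore motor that carries chromosomes to the spindle equator, stood at 9.95 with Senexin B, against 10.24 with DMSO, and at 10.51 in shCDK8, against 10.15 in pLKO.1. Cenpa, the histone variant that marks centromeres, had 10.20 with Senexin B, against 10.35 with DMSO, and 10.65 in shCDK8, against 10.33 in pLKO.1. For both genes Senexin B was the lowest and shCDK8 the highest array, and the controls lay between. Cenpf and Birc5, which encodes survivin, differed less in shCDK8, by 0.032 and 0.10, and were at -0.22 and -0.19 with Senexin B. The signs of this group held against either control with Senexin B, where Birc5 was closest to 0 at -0.032 from pLKO.1. In shCDK8 against DMSO Birc5 was at -0.054 and Cenpf at 0.0014.

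All 6 kinesin genes lay below DMSO with Senexin B (median -0.19), and 5 of the 6 lay above pLKO.1 in shCDK8 (median 0.068), beside 55.1% and 50.8% of expressed genes. Against the other control array 4 of 6 lay below pLKO.1 with Senexin B (median -0.046). In shCDK8 4 of 6 lay below DMSO (median -0.012). Kif23, a motor of the midzone, stood at 11.08 with Senexin B, against 11.38 with DMSO, and at 11.38 in shCDK8, against 11.20 in pLKO.1. Kif2c, a microtubule depolymerase at centromeres, had 10.77 with Senexin B, against 10.86 with DMSO, and 11.00 in shCDK8, against 10.74 in pLKO.1. Kif4, a chromokinesin, was low on the Senexin B array alone, with 9.35 with Senexin B, against 9.61 with DMSO, and 9.64 in shCDK8, against 9.65 in pLKO.1. Kif11, the motor that pushes spindle poles apart, was high with DMSO alone, at 10.91, while the other 3 arrays spanned 10.75 to 10.77. Kif20a and Kif20b, kinesins of cytokinesis, were at -0.15 and -0.22 with Senexin B and at 0.053 and 0.082 in shCDK8.

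Spindle microtubule factors were below DMSO in 5 of 5 with Senexin B and above pLKO.1 in 5 of 5 in shCDK8, with medians of -0.17 and 0.16. Of expressed genes 55.1% were below DMSO and 50.8% above pLKO.1. Against the other control array 4 of 5 were above pLKO.1 with Senexin B (median 0.053). In shCDK8 3 of 5 were above DMSO (median 0.040). For Ckap2 the inhibitor array was lowest and the hairpin array highest, with 10.48 with Senexin B, against 10.70 with DMSO, and 10.91 in shCDK8, against 10.71 in pLKO.1. The Ckap2 controls were 0.0036 apart. Nusap1 had 9.32 with Senexin B, against 9.49 with DMSO, and 9.33 in shCDK8, against 9.16 in pLKO.1, so that the controls were the extremes. Tpx2, the activator of Aurora A, and Hmmr spanned 0.13 and 0.17 over the arrays.

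Chromosome structure genes other than Mki67 were nearly level. Top2a, which encodes the topoisomerase that untangles sister chromatids, spanned 11.48 to 11.58, and the condensin gene Smc4 spanned 11.71 to 11.82. Ncapd2, another condensin subunit, had 9.96 with Senexin B, against 9.92 with DMSO, and 10.11 in shCDK8, against 10.03 in pLKO.1, and was the one gene lowest on the DMSO array. Of the cytokinesis genes Ect2, the exchange factor that activates RhoA at the cell equator, had 12.44 with Senexin B, against 12.76 with DMSO, and 12.57 in shCDK8, against 12.50 in pLKO.1. Its difference with Senexin B (-0.3197) was just under the limit, and was -0.060 against pLKO.1. Anln, encoding the scaffold anillin, had 11.55 with Senexin B, against 11.66 with DMSO, and 11.52 in shCDK8, against 11.66 in pLKO.1. Like Mki67 and Foxm1, it was lower in both perturbed cultures than in both controls.

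The inhibitor and hairpin comparisons share no array, so their values can be set side by side. Lower with Senexin B and higher in shCDK8 were 23 of the 36 genes, against 26.7% of expressed genes. Lower in both were 8 genes, Foxm1, Ccna2, Plk1, Bub1b, Kif4, Top2a, Mki67 and Anln (28.4% of expressed genes), and higher in both were 5 (24.1%), Ccnb2, Cdc25b, Bub1, Ttk and Ncapd2. The opposite pattern, up with the inhibitor and down with the hairpin, was shown by no gene of the 36 and by 20.7% of expressed genes. The single counts, 31 of 36 below DMSO and 28 of 36 above pLKO.1, already place most genes in the first group and few in the last. The controls also differed, with 31 of 36 genes lower in pLKO.1 than with DMSO. Against the other control array 18 of 36 were below 0 with Senexin B and 21 of 36 in shCDK8. A joint opposite response was not tested. Across the 36 genes, which share the 4 arrays and are not independent, Pearson's r between the differences was 0.11 and Spearman's rho 0.13, beside 0.0078 and 0.054 over 14272 expressed genes.

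**Figure D4:**
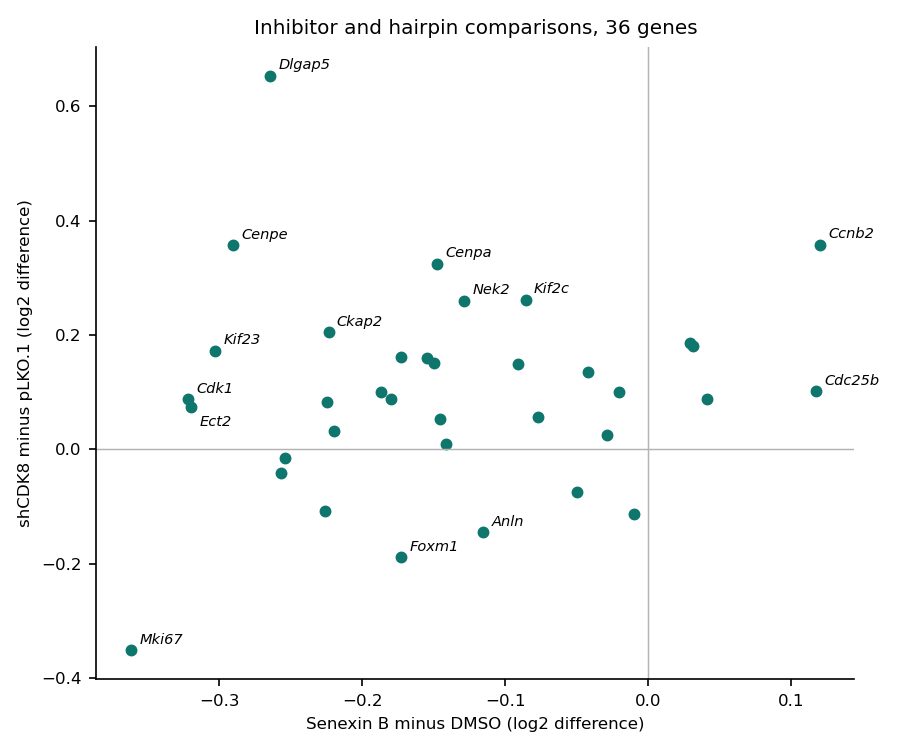
Log2 difference of Senexin B minus DMSO (x axis) against shCDK8 minus pLKO.1 (y axis), 1 point per gene for 36 genes. The upper left holds 23 genes, led by Dlgap5 and Cenpe, the lower left holds 8 genes with Mki67 farthest from 0, the upper right holds 5, and the lower right is empty. Against the other control array, not shown, 18 of the 36 were below 0 with Senexin B and 21 in shCDK8.

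A further list of 62 measured G2/M genes, drawn up by function, gave values of the same kind. With Senexin B 52 were below DMSO, with a median of -0.11, and 5 were lower by at least the limit and none higher, beside 55.1%, 8.99% and 9.21% of expressed genes. On the lower side the count is thus near the share of all expressed genes, and on the higher side it is under that share. Against pLKO.1 the median was 0.028, with 25 below 0, beside 50.2% of expressed genes. Against DMSO the lowest with Senexin B were Melk (-0.47), Kif14 (-0.43), Plk4, the kinase of centriole duplication (-0.39), and Kifc1 (-0.38). The highest against DMSO were Cenpm (0.15), Psrc1 (0.14), Mastl (0.12) and Racgap1 (0.10). In shCDK8 39 were above pLKO.1, with a median of 0.073, and 3 were higher by at least the limit and 1 lower, beside 50.8%, 8.81% and 7.68% of expressed genes. Against DMSO the median was -0.066, with 37 below 0, 2 past the limit on the higher side and 6 on the lower side. Of expressed genes 52.4%, 9.81% and 11.0% were so. Psrc1, which encodes a spindle microtubule protein, led the list in shCDK8 against pLKO.1. It had 9.60 with Senexin B, against 9.46 with DMSO, and 10.30 in shCDK8, against 9.53 in pLKO.1. The hairpin array thus stood above the other 3, with a difference of 0.77 from pLKO.1 and 0.84 from DMSO. Iqgap3 (0.41), Cdca2 (0.36) and Gtse1 (0.31) followed against pLKO.1. Hmgb2 (-0.33), Depdc1b (-0.31), Cenpm (-0.28) and Pbk (-0.25) were lowest against pLKO.1. Between the controls 50 of the 62 were below 0, beside 55.6% of expressed genes, with a median of -0.15, and Depdc1b (-0.41), Cks2 (-0.37), Melk (-0.36) and Cep55 (-0.29) were lowest. The highest between the controls were Cenpk (0.23), Spag5 (0.17), Ckap5 (0.16) and Ncapg2 (0.10).

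Genes that control these promoters were read next, 22 of them from the MuvB, E2F and NF-Y families. With Senexin B their median was -0.14, and 5 were lower by at least the limit and 1 higher, beside 8.99% and 9.21% of expressed genes. Against pLKO.1 the median was -0.028, with 13 of 22 below 0, beside 50.2% of expressed genes. Mybl2, encoding the MuvB partner B-Myb, stood at 10.39 with Senexin B, against 10.88 with DMSO, and at 10.43 in shCDK8, against 10.64 in pLKO.1. Both perturbed cultures lay below both controls. With Senexin B against DMSO, E2f3 (-0.65), E2f7 (-0.43), E2f8 (-0.34) and E2f1 (-0.33) were the other genes lower by the limit. E2f2 was 0.36 higher. Against pLKO.1, E2f3 was at -0.51, E2f1 at -0.51, E2f7 at -0.42 and E2f8 at -0.37, and Mybl2 at -0.24. Lin37 was higher by the limit there, at 0.34, and E2f2 was at 0.24. That is 4 lower and 1 higher by the limit, beside 8.74% and 10.1% of expressed genes. In shCDK8 against pLKO.1 the median was -0.028. Rb1, the retinoblastoma gene, was the one gene past the limit, at 9.13 against 8.64 in pLKO.1. Of expressed genes 8.81% were higher by the limit and 7.68% lower. Against DMSO the median was -0.074, with 2 genes higher by the limit and 3 lower, beside 9.81% and 11.0% of expressed genes. The higher ones were Rb1 (0.49) and Tfdp2 (0.36), and the lower ones Mybl2 (-0.44), Nfyc (-0.37) and E2f4 (-0.32). Lin9, a core subunit of MuvB, was at -0.15 and -0.13 in the inhibitor and hairpin comparisons, and E2f1 was at 0.0072 in shCDK8 against pLKO.1.

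Among 13 CDK inhibitors and G1 cyclins and kinases, Cdkn1a, which encodes p21, stood at 11.56 with Senexin B, against 11.84 with DMSO, and at 12.07 in shCDK8, against 11.86 in pLKO.1. The controls lay close together, with Senexin B below and shCDK8 above them. Past the limit were Ccnd3 (-0.33) and Cdkn2d (-0.33) with Senexin B and Cdkn1b (0.39), encoding p27, in shCDK8. That is 2 of 13 lower and 1 of 13 higher, beside 8.99% and 8.81% of expressed genes. These calls were lost against the other control array. Ccnd3 was at -0.11 and Cdkn2d at 0.062 with Senexin B against pLKO.1, and Cdkn1b at 0.052 in shCDK8 against DMSO. In those settings Cdkn1b (0.39, Senexin B) and Cdkn2d (-0.34, shCDK8) were past the limit. Between the controls, pLKO.1 minus DMSO, Cdkn2d was at -0.39 and Cdkn1b at -0.33, and none of the 22 promoter regulators was past the limit. G1/S genes, which serve DNA replication, were measured for 44 of 47 listed. Their median was -0.14 with Senexin B, with 35 below 0, and -0.078 in shCDK8, with 31 below 0, beside 55.1% and 49.1% of expressed genes below 0, where the mitotic genes had medians of -0.15 and 0.094. Against the other control array the G1/S medians were -0.10 with Senexin B, with 31 below 0, and -0.12 in shCDK8, with 38 below 0. Of expressed genes 50.2% and 52.4% were below 0 there, and the mitotic genes had medians of 0.0049 and -0.036. Whether the lists differ was not tested. Tyms (-0.43) and Rrm2 (-0.35) were lowest and Mcm7 (0.11) and Prim2 (0.093) highest with Senexin B, and Prim1 (-0.43) and Mcm5 (-0.32) were lowest and Orc1 (0.18) and Pole2 (0.13) highest in shCDK8. Between the controls the G1/S median was -0.049, with Rfc5 (-0.24) and Gins3 (-0.22) lowest and Ccne1 (0.15) and Cdc25a (0.14) highest. Of 9 reference genes 8 were below 0 with Senexin B, with a median of -0.073, and 5 in shCDK8, with a median of -0.022.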

How the data were processed

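Total RNA from 4 CT26 cultures was measured on Affymetrix Mouse Gene 2.0 ST arrays. The authors deposited 1 log2 value per probe set and array, from RMA in Affymetrix Expression Console, per the submitters' processing notes. Neither versions and settings nor whether the arrays were normalized together was stated. RMA equalises the arrays, so a shift common to all genes is removed. The signal over background was not analysed here.

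Symbols came from GEO's annotation of the platform. Of 41345 probe sets 23521 had 1 symbol, 1814 several and 16010 none. The probe set with the highest mean was kept per gene, and all 36 measured members had 1 probe set and the symbol of the RefSeq table. Differences were taken per gene and set beside all 14272 expressed genes, in Python 3.11.15 with pandas 2.3.3. Precision is limited by having 1 array per group, and no test was made and no p-value computed. The computation was tested on simulated data.

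Members and lists were chosen with earlier results of these data known. All members are accounted for. Named from other lists were the 4 largest and 4 smallest differences among other G2/M genes, the 2 largest and 2 smallest among G1/S genes, regulators past the limit and Cdkn1a, E2f1, Mybl2 and Lin9. Further values of single genes were chosen after they were seen. Promoter windows came from RefSeq (GRCm38.p6). Alternatives were other probe set rules, a second quantile normalization, a lowess trend (span 0.3) taken out, centring, a floor and a filter, other folds and the other control array.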

Additional observations from a re-analysis of the deposited data

How the results depend on the processing

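Medians that shifted by 0.1 or more (log2), and counts more than 1.5 times larger or smaller, were taken as moved. The choice of control array moved both medians. For Senexin B the median of -0.15 against DMSO became 0.0049 against pLKO.1, the count below 0 went to 18, and the count past the limit to 2. For shCDK8 the median of 0.094 against pLKO.1 became -0.036 against DMSO, the count below 0 went to 21 against 8, and the count past the limit to 2. Past the fold against both controls, a setting chosen after seeing the data, were 1 gene with Senexin B and 1 in shCDK8. With no replicate arrays the cause was not tested. The count past the limit rests on genes at the limit: for Senexin B it was 1 as deposited and 0 after lowess or centring, for shCDK8 5 as deposited and 4 after centring, where Cenpa was lost, and between the controls 2 as deposited and 1 after lowess, centring or repeated quantile normalization. At 1.5-fold the counts were 0 for Senexin B, 1 for shCDK8 and 0 between the controls, and at 1.1-fold 21, 17 and 16, the cause being the threshold itself. Of 80 alternatives 62 kept their value within these bounds, 17 were counted as moved and 1 as reversed. A median was counted as reversed only where it was at least 0.1 in size as deposited and changed sign. The reversed one was the Senexin B median set against pLKO.1. The shCDK8 median also changed sign against DMSO, but at 0.094 it was under 0.1 and was counted as moved. Among the 62 are the probe set rules, the floor and the filter, which could not change any value. Each of the 36 genes had 1 probe set and lay above the floor and the filter, so these settings say nothing on stability. No paired analysis was possible because each group has 1 array. Depth has no equivalent here, and differences of this size could not be told from array-to-array variation without replicates.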
